A study of Mus musculus with 16 samples.

Results

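The 134 long non-coding transcripts described here lie in 1 stretch of 290.67 kb on chromosome 12 of the mouse genome (GRCm38, 12:28898573-29189242), beside the protein-coding gene Eipr1. They are all the transcripts, out of 51024 listed for liver, whose interval falls inside those coordinates. The stretch had been selected from the measured values, as a run of neighbouring transcripts that were lower on high-fat feed than on ordinary feed. Differences between those 2 groups therefore describe how the stretch was chosen and test nothing about it, and the calls a fit over all features makes there are printed as values only. The same holds for comparisons of either drug group with high-fat feed alone, because they share its 4 libraries.

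RNA was sequenced from the livers of C57BL/6J mice, with 4 libraries in each of 4 groups. The first group received ordinary feed and the second high-fat feed. The third received high-fat feed with resveratrol, a plant polyphenol, at 100 mg/kg/day by gavage, and the fourth high-fat feed with metformin, a drug that lowers blood glucose, at 200 mg/kg/day by gavage. All carry an age of postnatal day 21, and the labels do not say what that age marks, nor name sex, cage or litter. The titles of the 4 high-fat libraries share the prefix H7, while each other group carries 2 or 3 prefixes, so what the prefix stands for and the high-fat feed cannot be told apart. Nothing states that replicates came from separate cages or litters, and p-values measure the spread between these libraries.

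Long intergenic non-coding RNAs are transcribed from their own start sites between coding genes, and many are present at low levels and in few tissues. Databases such as NONCODE also collect transcript pieces assembled from sequencing reads, so that 1 transcribed region can be listed under many names. Eipr1 encodes a partner of the EARP and GARP complexes, which tether vesicles returning from endosomes and take part in the making of dense-core vesicles. Myt1l, the next coding gene on the far side, encodes a zinc-finger transcription factor best known from neurons.

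Eipr1 (12:28751803-28869865, + strand) ends 28.7 kb before the stretch and Myt1l begins 339 kb after it. GENCODE M21 places 3 long intergenic non-coding genes within the stretch. Gm31508 (12:28910229-29041874, + strand) runs from 11.7 to 143.3 kb from its beginning and holds 50 members. The short 4833405L11Rik (12:29104487-29106850, − strand) holds 2, and Gm31333 (12:29139167-29199768, + strand) starts 240.6 kb in, runs past the end and holds 27. None of the members overlaps a coding gene. NONCODE supplied 132 of the 134 IDs and Ensembl the other 2. Of the members, 106 have a listed length that fills their whole interval, as an unspliced block would, and these are called single-interval members below. Their lengths run from 290 to 9221 bases (median 1310.5), they cover 62.0% of the stretch, and 37 of the 90 gaps between them are under 200 bases. The other 28 are multi-part, and 15 of these span more than 200 kb.

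The starts of the 2 larger non-coding genes are shown because the level of the members was high near the first and rose again over the second. Members also lie before the start of Gm31508, which is 11.7 kb into the stretch. Of the 15 multi-part members over 200 kb, 13 begin within the first 30 bases of the stretch. The windows are therefore annotated gene starts and need not be where transcription of the stretch begins. The sequences are the RefSeq promoters (GRCm38.p6, + strand, 5′ to 3′), which were taken by their position in the stretch and carry the symbols of these genes. Lower case marks the 250 bases before the annotated start and capitals the 50 bases from the start on. The Gm31508 window lies at chr12:28909979-28910278 and the Gm31333 window at chr12:29141679-29141978, since RefSeq starts Gm31333 at 29141929.

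Gm31508: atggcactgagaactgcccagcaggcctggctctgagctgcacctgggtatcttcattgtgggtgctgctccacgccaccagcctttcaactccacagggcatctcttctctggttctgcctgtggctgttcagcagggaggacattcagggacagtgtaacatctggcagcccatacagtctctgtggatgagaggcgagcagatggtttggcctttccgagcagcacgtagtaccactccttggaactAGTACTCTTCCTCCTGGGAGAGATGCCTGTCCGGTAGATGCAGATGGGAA

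Gm31333: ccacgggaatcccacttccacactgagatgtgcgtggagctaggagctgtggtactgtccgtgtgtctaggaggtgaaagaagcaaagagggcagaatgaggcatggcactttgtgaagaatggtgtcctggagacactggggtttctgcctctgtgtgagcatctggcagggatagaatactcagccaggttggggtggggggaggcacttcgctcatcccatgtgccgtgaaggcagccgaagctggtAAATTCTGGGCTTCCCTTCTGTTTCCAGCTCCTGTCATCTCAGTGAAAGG

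Both windows are moderately rich in G and C, at 56% and 55%, against a median of 52.7% over the 32851 RefSeq promoters of the same length, and hold 5 and 6 CpG dinucleotides against a median of 7. Searched on both strands, 5 short motifs were absent from both windows. They were the TATA box TATAAA (present in 13.6% of all promoters), the CCAAT box (37.4%), the FOXA site TGTTTAC or TGTTTGC (8.48%), the HNF1 half-site GTTAAT (7.10%) and the nuclear receptor half-site AGGTCA (16.3%). This says only that these letters are not in these windows.

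Values are FPKM, the reads of a transcript per kb of its length and scaled to the depth of its library. Between 17.2 and 31.1 M reads (M, mega) were counted per library. Listed transcripts took 3.03 to 6.26 M of them and the members 2542 to 15130 reads. The high-fat library titled H7-5L (high-fat replicate 4) stood apart. Its median ratio to the geometric mean of the 16 libraries was 0.691, against 0.885 to 1.15 in the other 15. That ratio is taken over tested features above 0 in every library. A ribosomal RNA locus took 22.6% of the listed reads of H7-5L, against 8.80% to 16.1% in the others. Several results that involve it are given with and without it, and where no second value is given it is included. Coding genes are hardly covered by the files, so the labelled tissue could be checked only weakly: 2 of 12 hepatocyte markers had an exonic listed transcript, with summed levels of 0.141 to 0.254 FPKM. Endothelial, red cell, pancreas and fat markers had none. Single transcripts stood for 3 other cell types, at Csf1r for 7 myeloid markers (0.0647 to 3.89 FPKM over the libraries), Sox9 for 5 cholangiocyte markers (0.117 to 1.33) and Ptprc for 3 lymphocyte markers (0.118 to 1.40). Stellate markers had 2 of 5, with Col1a1 near 0 (sum 0.0674 to 0.193). The means at Sox9 had the order of the groups seen in the stretch, at 0.725, 0.346, 0.211 and 0.177 for ordinary, resveratrol, metformin and high fat. The other lists did not have that order. In the same order of groups the means were 0.930, 1.64, 0.902 and 0.101 at Csf1r and 0.684, 0.485, 0.698 and 0.726 at Ptprc. The stellate sums averaged 0.129, 0.147, 0.134 and 0.141, and the hepatocyte sums 0.213, 0.198, 0.205 and 0.181. The lowest library at Sox9 or Csf1r was at 0.172 or below in each group, and the part of any of these cell types in the results was not tested. In bulk tissue, fewer cells of a type and less RNA per cell cannot be told apart.

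The stretch as a whole was high in 6 of the 8 ordinary and resveratrol libraries and low in all 8 high-fat and metformin libraries. Its pooled level is the length-weighted mean FPKM of the 106 single-interval members. On ordinary feed it was 2.86, 3.04, 3.21 and 1.47 (mean 2.65 ± 0.797, SD, n = 4). On high-fat feed it was 0.539, 1.27, 1.10 and 0.633 (0.885 ± 0.355, SD, n = 4), and without H7-5L the mean was 0.969 ± 0.383 (SD, n = 3). All 4 high-fat values lay below all 4 ordinary values, with and without that library, and the ordinary mean was 2.99 times the high-fat mean, or 2.73 times without H7-5L. With resveratrol the level was 2.54, 2.32, 3.32 and 0.670 (2.21 ± 1.11, SD, n = 4). With metformin it was 0.773, 1.45, 1.06 and 0.618 (0.974 ± 0.366, SD, n = 4). Resveratrol replicates 1 to 3 lay above every metformin library and replicate 4 lay among them, so these 2 groups overlap. The mean with resveratrol was 2.27 times that with metformin.

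**Figure D1:**
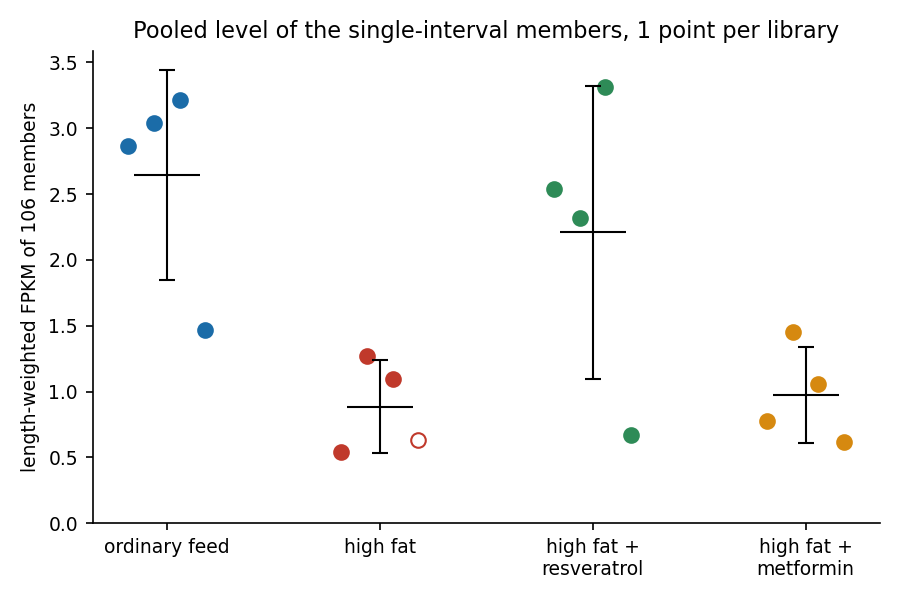
Length-weighted FPKM of the 106 single-interval members (vertical axis) in each of the 16 libraries, by group. Each point is a library, the open point is H7-5L, and bars show the mean ± SD of 4 libraries. Ordinary replicate 4 (1.47) and resveratrol replicate 4 (0.670) sit below the other 3 points of their groups.

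The low libraries in the ordinary and resveratrol groups carry a title prefix of their own. Ordinary replicates 1 to 3 share the prefix C1 and replicate 4 has C2. Resveratrol replicates 1 and 2 share RH1, replicate 3 has RH3 and the low replicate 4 has RH6. Among the metformin libraries the 2 with the prefix MH8 (1.45 and 1.06) lay above those with MH6 (0.773) and MH4 (0.618). The labels do not say what the prefix marks, and its part in the levels was not tested.

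The summed FPKM of all 134 members, multi-part ones included, averaged 253 ± 72.3 on ordinary feed, 93.9 ± 35.9 on high-fat feed, 216 ± 106 with resveratrol and 103 ± 36.8 in the metformin group (n = 4 libraries, SD). The same members took 0.302%, 0.0895%, 0.249% and 0.108% of the listed reads in those groups. Without H7-5L the high-fat values of these 2 measures were 102 ± 38.8 FPKM (SD, n = 3) and 0.101%. Both measures order the groups in the same way as the pooled level. From the highest mean to the lowest the order was ordinary, resveratrol, metformin and high fat, and the values of each group overlapped with those of the next in that order. Measures of the whole library had the same order of means. The median ratio was 1.11 ± 0.0272, 1.07 ± 0.0325, 0.996 ± 0.0973 and 0.925 ± 0.162, and reads within introns made up 10.3%, 9.52%, 8.30% and 7.31% of the listed reads. The share of 7SL RNA, part of the particle that guides new secretory proteins to their membrane, ran the other way, at 45.5%, 50.6%, 52.0% and 53.8%. Their part in the levels of the members was not tested beyond rescaling: after division by the median ratio the ordinary mean of the pooled level was 2.48 times the high-fat mean, and the resveratrol mean 2.12 times the metformin mean. The 28 multi-part members differed less, with summed levels of 8.92 ± 3.41, 5.85 ± 0.734, 8.33 ± 3.44 and 5.45 ± 1.16 FPKM (SD, n = 4 each). They held 3.94% of the member reads, and 25 of them averaged under 0.5 FPKM.

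Along the stretch the level formed 2 slopes. It was highest 30 to 60 kb from the beginning, in the first part of Gm31508, and declined steadily to 210 to 240 kb. It then rose again over the start of Gm31333 and declined once more. Over all 16 libraries the pooled level in successive 30 kb segments averaged 1.95, 2.85, 2.34, 1.98, 1.46, 1.02, 0.788, 0.690, 1.36 and 0.834 FPKM. The second segment was 2.35 to 7.89 times the eighth in every library, and the ninth was 1.36 to 2.87 times the eighth. Both steps were therefore present in all 16 libraries, whatever the feed. The eighth segment holds 7 members and only 38 to 206 reads per library, so its ratios are the least precise.

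**Figure D2:**
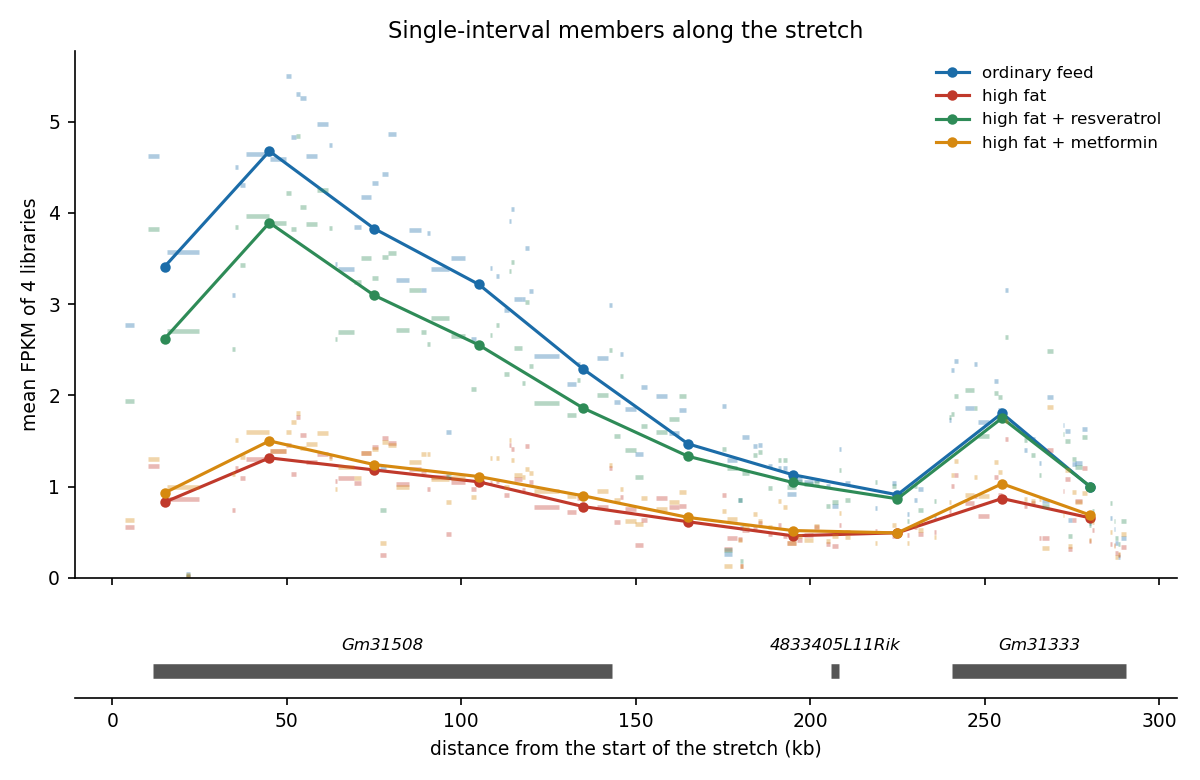
Mean FPKM of 4 libraries for each single-interval member (short bars, placed by distance in kb from the beginning of the stretch) and for 30 kb segments (joined points), in 4 colours by group. Grey bars below mark the annotated non-coding genes. The ordinary and resveratrol lines peak at 4.68 and 3.89 FPKM in the second segment, and all 4 lines rise again in the ninth.

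The difference between feeds was greatest at the beginning and shrank towards the end. The ordinary mean was 4.12, 3.56, 3.24, 3.06, 2.93, 2.39, 2.46, 1.85, 2.08 and 1.52 times the high-fat mean in the 10 segments, and without H7-5L it went from 3.72 in the first to 1.50 in the last. In the second segment the pooled level was 4.68 ± 1.64 on ordinary and 1.31 ± 0.544 on high-fat feed (SD, n = 4 each; 1.46 ± 0.567 without H7-5L, n = 3). In the last segment it was 0.994 ± 0.383 and 0.656 ± 0.215 (SD, n = 4 each; 0.663 ± 0.262 without H7-5L, n = 3), and there the groups overlapped. The ratio of resveratrol to metformin, from libraries that did not enter the choice of the stretch, went from 2.82 in the first segment to 1.46 in the last. Within a library, the second segment was 1.77 to 3.88 times the ninth on ordinary feed and 1.37 to 1.72 times on high-fat feed. The same ratio was 1.62 to 2.38 with resveratrol and 1.21 to 1.61 with metformin. These 10 ratios and the within-library ratios were chosen after their values were seen and carry no test.

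**Figure D3:**
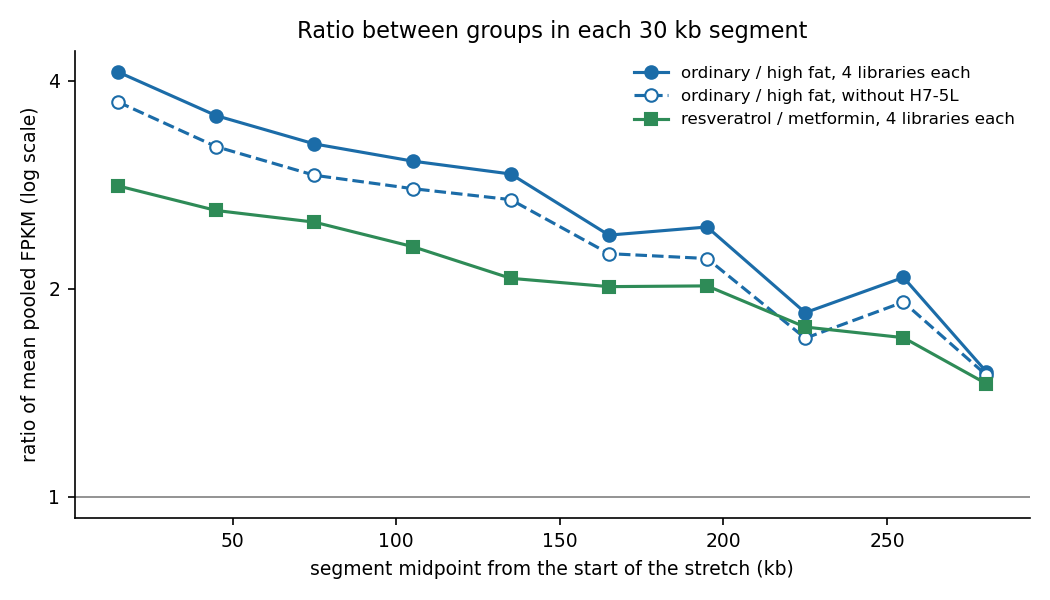
Ratio of group means of the pooled FPKM (vertical axis, log scale) in each 30 kb segment against its distance from the beginning of the stretch. Filled circles compare ordinary with high-fat feed, open circles leave out H7-5L, and squares compare resveratrol with metformin. All 3 lines start at 2.82 or above and end at 1.52 or below.

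Outside the stretch the levels of listed transcripts were low. The last single-interval member (mean 0.468 FPKM over the libraries) was nearer to them than the first (1.47). Within 500 kb before it 9 transcripts are listed and within 500 kb after it 27, and no feature of either flank reached the level needed for testing, 1 FPKM in at least 4 libraries. The pooled level of the single-interval intergenic transcripts there averaged 0.223 FPKM before (4 transcripts, 0.140 to 0.364 over the libraries) and 0.134 after (25 transcripts, 0.0523 to 0.406). After the stretch the group means were 0.200 ± 0.150 on ordinary feed and 0.143 ± 0.0702 with resveratrol. They were 0.114 ± 0.0626 with metformin and 0.0775 ± 0.0156 on high-fat feed (SD, n = 4 each). That is the order of means seen in the stretch, and it was not tested. Before the stretch the means were 0.213, 0.230, 0.221 and 0.231 in the same order of groups. The nearest listed transcript before, NONMMUT013780.2, ends 22.5 kb away and averaged 0.0889 FPKM. It is multi-part, and the multi-part members within the stretch had a median of 0.0867 FPKM. With no listed transcript nearer, the shape of the change at the beginning cannot be seen. The nearest after, NONMMUT086776.1, begins 8.86 kb away within Gm31333 and averaged 0.160 FPKM (0.0354 to 0.493). By contrast NONMMUT086668.1, the first single-interval member, lies 3.5 kb into the stretch and read 3.39, 2.95, 3.81 and 0.916 FPKM on ordinary feed and 0.277, 0.656, 0.773 and 0.537 on high-fat feed. At the far end, where Gm31333 runs on past the edge, NONMMUT141364.1, the last single-interval member, read 0.779, 0.393, 0.352 and 0.200 FPKM on ordinary and 0.148, 0.324, 0.529 and 0.337 on high-fat feed, with overlap.

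None of the 15 nearby coding genes on the list, Eipr1 and Myt1l among them, had a tested feature, so the levels of those genes are not described by these data. Of the 5 EARP and GARP subunit genes on a second list, 2 had tested features, 4 in all. The 1 called in high fat against ordinary feed lay in Vps52 and was lower on high-fat feed (log2 change −0.47, limma adjusted p = 0.0141). Those at Vps54 did not pass, and 1 of them, NONMMUT140361.1, was higher in mean on high-fat feed (log2 change 0.23, limma adjusted p = 0.474). Over all tested features 11.8% were called lower, and nothing is read from 1 call among 4 features. Both lists were drawn up with earlier results of these data known.

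The 88 members that passed the low-level filter were those tested, 85 single-interval and 3 multi-part. The other 46, 21 single-interval and 25 multi-part, were too low. A member could pass through the groups in which it was high, so counts over the 88 are not evidence of a difference. Of the 88, limma called 52 lower and none higher on high-fat feed, against 11.8% of all 7413 tested features called lower. This is the contrast that chose the stretch, so the count was fixed by that choice and nothing is read from it. The median log2 change of the 88 was −0.85, against −0.16 over all tested features. For 59 of the 88 and 65 of all 134 members all 4 high-fat values lay below all 4 ordinary values (17.3% of all tested features), and the same 2 counts held without H7-5L. A lower mean on high-fat feed was found for 123 of all 134 members and for 67.5% of all tested features. Without H7-5L, 9 of the 88 were called and the median was −0.78 (−0.09 over all tested features). Leaving out other libraries also moved the count by over 1.5 times, to 9, 10 and 21 without ordinary replicate 2, 3 and 1, and to 24 without high-fat replicate 1, while the median stayed between −0.98 and −0.78. The shares of all tested features called in these refits are not given here, so nothing is read from the change in the counts. At the threshold, NONMMUT086743.1 was the member just inside (adjusted p = 0.0489, log2 change −0.60) and NONMMUT086718.1 just outside (0.0510, −0.85).

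The members with the highest levels lie side by side within Gm31508. NONMMUT086676.1 (12:28948439-28949830) read 6.50, 6.16, 6.60 and 2.75 FPKM on ordinary feed. It read 0.761, 1.96, 1.54 and 1.57 on high-fat feed, 4.89, 4.71, 6.21 and 1.07 with resveratrol, and 1.13, 2.00, 1.87 and 1.39 with metformin. Its ordinary values all lay above its high-fat values, by 3.77 times in the mean, and its resveratrol values again split into 3 high and 1 low. The neighbouring NONMMUT086678.1 (12:28951251-28952276), with the highest mean of all members, averaged 5.31 ± 1.89, 1.76 ± 0.648, 4.84 ± 2.56 and 1.81 ± 0.499 FPKM in the same order of groups (SD, n = 4 each). NONMMUT086679.1, NONMMUT086681.1 and NONMMUT086674.1 followed the same pattern, with ordinary means of 5.25, 4.98 and 4.65 FPKM and high-fat means of 1.56, 1.36 and 1.30.

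The longest member, NONMMUT086670.1 (12:28914138-28923358, 9221 bases), lies just inside the start of Gm31508 and carries 6564 reads over the 16 libraries. It read 3.93, 4.09, 4.56 and 1.72 FPKM on ordinary feed and 0.684, 1.15, 1.11 and 0.509 on high-fat feed. With resveratrol it read 3.32, 2.85, 3.93 and 0.725, and with metformin 0.811, 1.35, 1.24 and 0.566. The 3 high resveratrol values lay above all metformin values and the fourth did not. NONMMUT086669.1, which crosses the annotated start of Gm31508, averaged 4.63 ± 1.85 on ordinary and 1.23 ± 0.590 on high-fat feed (SD, n = 4 each). NONMMUT086672.1 and NONMMUT086673.1, further into the gene, had ordinary means of 4.50 and 4.31 FPKM and high-fat means of 1.20 and 1.09. The spliced Ensembl transcript of Gm31508 itself, ENSMUST00000221643, was low in every group, at 0.271 ± 0.0835, 0.221 ± 0.241, 0.294 ± 0.174 and 0.159 ± 0.124 FPKM (SD, n = 4 each). Most reads over this gene were thus listed under the unspliced NONCODE blocks. ENSMUST00000222639, the transcript of 4833405L11Rik, is listed at 0 in all 4 ordinary libraries and held 8 reads in all.

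The comparison of resveratrol with metformin sets against each other the values of 8 libraries that did not enter the choice of the stretch. The error in the limma fit and the low-level filter drew on all 16 libraries, however, so the counts below are not independent of that choice. No member was called by limma after adjustment over all 7413 features (0%, 0 of 7413 called anywhere), and the lowest adjusted p of a member was 0.765. At an unadjusted p under 0.05 there were 44 of 88 members, all higher with resveratrol, against 471 features (6.35%) over the whole table. The members rose and fell together, so these 44 are not 44 separate observations, and the count rested on single libraries. It was 81 without resveratrol replicate 4, but 8, 17 and 25 without resveratrol replicate 3, 1 and 2, and 16 and 22 without metformin replicate 4 and 1. The shares of all tested features that go with these counts are not given here. Fitting only the 2 groups gave 28. The median log2 difference of the 88 was 0.55, against 0.07 over all tested features. The mean was higher with resveratrol for 125 of all 134 members, and for 64.8% of all tested features. For 1 of them, the low NONMMUT086745.1, all 4 resveratrol values lay above all 4 metformin values (3.66% of all tested features).

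The 4 members with the lowest p in this comparison lie along Gm31508. NONMMUT086707.1 (12:29012914-29013565) read 3.48, 3.01, 5.75 and 1.61 FPKM with resveratrol and 0.652, 1.91, 1.20 and 1.38 with metformin (log2 difference 0.91 ± 0.27 SE, limma adjusted p = 0.765). Its lowest resveratrol value lay below its highest metformin value. NONMMUT086700.1, NONMMUT086679.1 and NONMMUT086692.1 had log2 differences of 0.77, 0.97 and 0.81, with the same adjusted p of 0.765. For NONMMUT086670.1, picked by its length, the means were 2.71 ± 1.39 and 0.992 ± 0.367 FPKM (SD, n = 4 each), and a two-sided exact permutation test of the difference gave p = 0.114, where 4 libraries against 4 allow no p below 0.0286. Neither the adjusted nor the exact test passed its threshold, which does not show that the levels were alike.

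**Figure D4:**
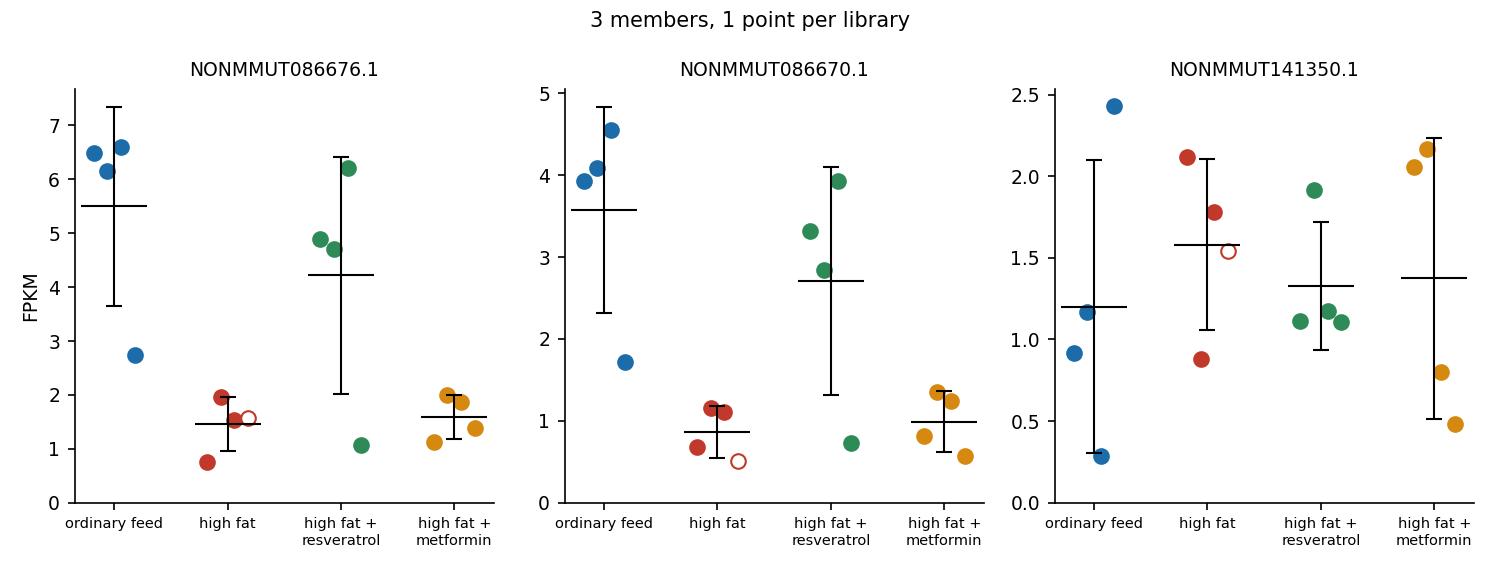
FPKM (vertical axes, each from 0) of 3 members in each library by group, with the mean ± SD of 4 libraries and H7-5L as the open point. NONMMUT086676.1 and NONMMUT086670.1 show the same split of groups, and NONMMUT141350.1, which spans the stretch, shows none, with group means of 1.20 to 1.58.

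Against high-fat feed alone, limma called no member with resveratrol (0.0809% of all tested features called) and none with metformin (0.027% called). The median log2 difference of the 88 was 0.65 with resveratrol (0.13 over all tested features) and 0.07 with metformin (0.07). At an unadjusted p under 0.05 there were 64 of 88 members with resveratrol (16.2% of all tested features) and 0 of 88 with metformin (7.47%). Without resveratrol replicate 4, 23 members were called higher with resveratrol. The median of the 88 was then 0.89 (0.14 over all tested features), and the share of all features called in that setting is not given here. Against ordinary feed the medians were −0.25 with resveratrol (−0.04 over all tested features) and −0.80 with metformin (−0.09). Members with an unadjusted limma p under 0.05 there numbered 0 of 88 with resveratrol (13.2% of all tested features) and 68 of 88 with metformin (20.1%). These contrasts share libraries with each other and with the one that chose the stretch.

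The members varied together within the groups as well as between them. Deviations of log2(FPKM + 1) from the group means take away the differences in feed. For pairs of tested single-interval members that do not overlap, the median Pearson r of these deviations was 0.850 over 16 libraries (3562 pairs) and 0.861 without H7-5L. Without removing the group means it was 0.903. The correlation weakened only slowly with distance, from 0.897 for pairs under 25 kb apart to 0.893, 0.861, 0.814 and 0.777 for pairs 25 to 50, 50 to 100, 100 to 200 and 200 to 300 kb apart. For pairs of other tested intergenic single-interval features on 1 chromosome the medians at those distances were 0.606, 0.451, 0.381, 0.304 and 0.229. Over all pairs of the 88 tested members, overlapping ones included, the within-group median was 0.846, and 0.746 without resveratrol replicate 4. That was the lowest median when 1 library was left out at a time. All pairs come from the same libraries, and the medians are descriptions with no test.

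**Figure D5:**
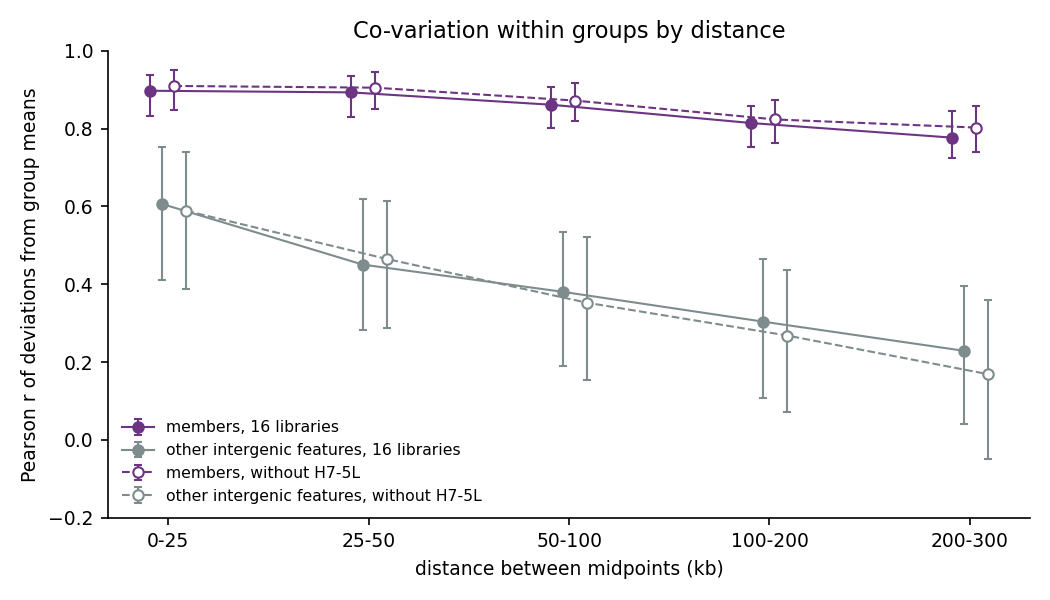
Median Pearson r of within-group deviations (vertical axis; bars show the quartiles over pairs) against the distance between 2 features in kb, for members and for other intergenic features, with all 16 libraries (filled) and without H7-5L (open). Members stay at 0.777 or above at every distance with all libraries, and other features fall to 0.229.

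A few libraries showed the widest shared deviation. Its median over the members, on the log2 scale, was −0.78 in resveratrol replicate 4 and 0.52 in resveratrol replicate 3, −0.47 in ordinary replicate 4 and 0.32 in metformin replicate 2. In H7-5L it was −0.17, within the range of the other high-fat libraries (−0.28 to 0.30). Resveratrol replicate 4 was the lowest of its group for 114 of the 134 members, against 30.9% of all tested features. Ordinary replicate 4 was the lowest of its group for 100 members, against 22.3% of all tested features.

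A pair of members departed from the common course. NONMMUT141350.1, multi-part, begins and ends with the stretch and has a listed length of 2333 bases. It read 0.919, 1.17, 0.286 and 2.43 FPKM on ordinary feed, 2.12, 0.882, 1.78 and 1.54 on high-fat feed, 1.11, 1.91, 1.17 and 1.10 with resveratrol, and 2.06, 2.16, 0.799 and 0.482 with metformin. Its within-group deviations had r = −0.18 with the median of the other members over 16 libraries. Where in the stretch its exons lie is not given by the files. NONMMUT141349.1, with the same ends, averaged 0.166 to 0.447 FPKM in the 4 groups. The other was NONMMUT086701.1 (12:28999708-29001246, multi-part), with r = 0.52, and it is described next. The other 86 tested members had r between 0.73 and 0.98.

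Some exact zeros stood out among otherwise smooth values. NONMMUT086701.1 read 2.71, 4.02, 4.38 and 0 FPKM on ordinary feed and 3.00, 0, 4.22 and 0.761 with resveratrol, and was also 0 in metformin replicate 2. In those 3 libraries the members 0.110 kb before it and 0.255 kb after it read 1.31 FPKM or more, a level at which it would hold 33.1 to 82.7 reads. NONMMUT086677.1 is listed at 0 in H7-5L, between neighbours at 1.57 and 1.64 FPKM. That zero bears on its change, the lowest of the tested members at −1.52 on the log2 scale. Its ordinary mean was 4.26 times its high-fat mean with H7-5L and 3.20 times without. In all, 8 of 1392 values of the tested members under 50 kb in span were exactly 0, in 4 members. How the counting step gave them was not tested. These members were singled out after their values were seen. At the other extreme NONMMUT013783.2, which lies inside NONMMUT086670.1, averaged 0.0266 FPKM with 10 reads in all, so reads over shared bases are not credited to both names alike.

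Few features elsewhere varied in the same way. The within-group deviations of 80 of the 88 members had r over 0.8 with the members' median deviation, and so did 15 of the other 7325 tested features. That median comes from the members themselves, so the counts are not on an equal footing and nothing is read from their difference. Of the other features, 83 had r over 0.7 and 3 had r over 0.9. The closest were NONMMUT122960.1 on chromosome 6, 6.47 kb from Mical3 (r = 0.94), Gm43658, a non-coding gene in an intron of the clock gene Clock (0.91), NONMMUT038867.2 in part over exons of Caprin1 (0.91), NONMMUT109155.1 across Abcb11, the bile salt export pump (0.89), and NONMMUT134647.1 across Lipc, hepatic lipase (0.88). Each r is over 16 libraries, strand was not used, and the symbols name positions only. Gm43658 read 2.08, 2.01, 1.85 and 1.19 FPKM on ordinary feed, against 0.528, 1.17, 0.828 and 0.469 on high-fat feed. NONMMUT122960.1, in contrast, had a log2 change of only −0.07 between those groups, so likeness within groups and difference between feeds did not go together in every feature.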

How the data were processed

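Liver total RNA of 16 mice was sequenced. The authors deposited FPKM per listed transcript, in a separate file for each library, using the GRCm38 genome, Cufflinks 2.1.1 and Bowtie 0.12.2 per the submitters' processing notes. Strand use in counting is not given in the sources at hand. Members were taken by interval alone. The members and lists were chosen with earlier results of these data known. Transcripts of an Ensembl gene were summed, giving 49988 features, and 7413 with at least 1 FPKM in at least 4 libraries were tested. Differences were fitted with limma 3.58.1 (R 4.3.3, mean-variance trend) on log2(FPKM + 1) in 1 fit of 16 libraries, with Benjamini-Hochberg adjustment over all 7413 and a threshold of 0.05. Fold changes on that scale understate changes of low features. The fit was tested on simulated data with independent noise in each feature. That setting does not cover a block of members that vary together. Reads and library totals were recovered from the smallest step of FPKM times length in each library (tolerance 0.05 of a read). Counting error covers reads, not animals. Pooled levels weight FPKM by length. Members were named by rank of mean, change or p, by Ensembl ID, by position or length, and by nearness to the threshold. Replicates are numbered in sample order and pair nothing. Other scalings, filters, a smaller pseudocount, non-overlapping members and leaving out each library were tried.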

Additional observations from a re-analysis of the deposited data

Results flagged for a closer look

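Results are listed here where the highest or lowest of the 4 libraries of a group stood apart from the other 3 by Dixon's criterion, which chance meets in about 1 of 20 groups. It was met in 8 of 144 groups examined. The summed FPKM of the members was 145 in ordinary replicate 4, against 286 to 295 in the other ordinary libraries. In the same library the pooled level 120 to 150 kb into the stretch was 1.43 FPKM, against 2.53 to 2.60, and NONMMUT086676.1 read 2.75 FPKM, against 6.16 to 6.60. NONMMUT141350.1 read 1.91 FPKM in resveratrol replicate 2, against 1.10 to 1.17 in the other 3. ENSMUST00000221643, the transcript of Gm31508, read 0.580 FPKM in high-fat replicate 1, against 0.0611 to 0.129, and 0.0351 in resveratrol replicate 4, against 0.347 to 0.406. ENSMUST00000222639, the transcript of 4833405L11Rik, was listed at 0 in resveratrol replicate 4, against 0.0195 to 0.0224 FPKM, and at 0.0265 in metformin replicate 2, against 0 in the other 3, on 8 reads in all.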

How the results depend on the processing

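Members called lower in high fat against ordinary feed numbered 52 of 88. The number was 23 with median-ratio scaling, 23 with quantile normalization, 2 with median-ratio scaling without H7-5L, and 1 of 134 with no filter, where more features share the adjustment. Leaving out 1 library at a time gave 9 to 67. With a pseudocount of 0.1 the median log2 change became −1.47, and that of resveratrol against high fat 1.09. Leaving out 1 library gave medians of −0.98 to −0.78 for high fat, 0.47 to 0.89 for resveratrol and −0.040 to 0.17 for metformin against high fat, the last reversing in sign, and 0.36 to 0.79 for resveratrol against metformin. Calls ran from 0 to 23 for resveratrol against high fat and stayed at 0 for the other 2 drug contrasts. For settings other than the main fit, the share of all features called is not given here. Unadjusted counts for resveratrol against metformin ran from 8 to 81, and these, like the ratios of pooled levels (2.64 to 3.50 and 1.89 to 2.80), were added after seeing the data. Group means of summed FPKM ran over 239 to 289, 81.1 to 105.7, 180 to 264 and 86.4 to 115 for ordinary, high fat, resveratrol and metformin, and median correlations within groups over 0.746 to 0.866. No paired analysis was possible because the labels give no replicate numbers. Members with few reads, such as those 210 to 240 kb into the stretch, are limited by depth.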
